A study of Mus musculus with 20 samples.

Results

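The replication-dependent histone genes are those whose symbols start with Hist1, Hist2, Hist3 or Hist4 in the NCBIM37 (mm9) annotation, and they were chosen by symbol alone. The annotation held 70 of them among 37310 genes, and 68 had a row of their own among the 36611 genes with a row in the deposited table. The 2 others, Hist2h2aa1 and Hist1h2ap, had transcripts identical in sequence to those of Hist2h2aa2 and Hist1h2ao, so the value of the listed copy cannot be split between them. RNA came from inguinal white adipose tissue (iWAT) of 20 female mice at 6 months of age, in 4 groups of 5. Their strain is labelled C57BL/6, and per the study's methods the floxed line was C57BL/6 N Tac and the Cre line C57BL/6 J. Ad-Tmem120a-/- mice (knockout) carried floxed exons 2 and 3 of Tmem120a, a gene for a transmembrane protein of the nuclear envelope, and an adiponectin-driven Cre active in mature adipocytes, so other cells of the tissue kept the gene. Control mice were littermates with the same floxed alleles (Tmem120a fl/fl) and no Cre. For 15 weeks each genotype had received food with either 10.5% fat (low fat diet, LFD) or 58% fat (high fat diet, HFD). Values are TPM, read counts scaled by transcript length and by the size of the library, and estimated read counts, which the tests used.

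In dividing cells the genes of the histone clusters are switched on together as DNA is copied, and they supply the H2A, H2B, H3 and H4 proteins of the nucleosome core and the H1 linker. Most of their mRNAs end in a short RNA hairpin, the stem-loop, which is bound by SLBP, in place of a poly(A) tail. For this reason such mRNAs are largely lost when libraries are made from polyadenylated RNA, while libraries of total RNA with the ribosomal RNA removed, as here, retain them. Some cluster genes are also known to make spliced or extended polyadenylated mRNAs in cells that do not divide.

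The hairpin sequences of 4 genes are shown to compare where the annotated transcripts end in the most abundant H2A and H4 members, in Hist2h4, an H4 gene chosen after its values were seen, and in Hist1h2bc, the member that changed with diet. Each line holds 26 bases of the sense strand of mm9, with the 16-base hairpin (a stem of 6 base pairs around a loop of 4 bases) in capitals. Hist2h2aa2 (H2A, chr3:96043707-96043722, minus strand) and Hist1h4d (H4, chr13:23673819-23673834, plus strand) have annotated transcripts that end 68 and 25 bases past it. The transcript of Hist2h4 (H4, chr3:96066862-96066877, minus strand) runs on for 1235 bases. In Hist1h2bc (H2B) the hairpin at chr13:23776516-23776531 (plus strand) lies in the intron, just past exon 1 (23776068 to 23776490), and the annotated transcript skips it and ends with exon 2 (23784045 to 23784357).
Hist2h2aa2: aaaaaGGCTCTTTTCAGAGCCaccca
Hist1h4d: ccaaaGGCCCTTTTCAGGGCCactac
Hist2h4: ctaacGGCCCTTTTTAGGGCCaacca
Hist1h2bc: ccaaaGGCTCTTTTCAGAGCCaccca

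A hairpin was found in a transcript, or within 100 bases after it, for 60 of the 70 genes, in 6 forms of 16 bases. The form printed for Hist2h2aa2 was held by 38 genes of the H1, H2A, H2B and H3 classes and by no H4 gene. The form printed for Hist1h4d was held by 8 genes, all of the H4 class, and that of Hist2h4 by 2 H4 genes. By the annotated transcript with the most TPM, 41 of the 68 listed genes end within 100 bases of the hairpin, 17 run further, and 10 hold none. Hist2h2be, an H2B gene with a single exon of 2618 bases, is one of the last group. These are features of the annotation, and the files do not show which ends were used in the tissue.

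Upstream of Hist1h2bc, the 120 bases before the annotated start (mm9, chr13:23775948-23776067, plus strand) hold an octamer motif and a CCAAT box, printed in capitals.
Hist1h2bc upstream: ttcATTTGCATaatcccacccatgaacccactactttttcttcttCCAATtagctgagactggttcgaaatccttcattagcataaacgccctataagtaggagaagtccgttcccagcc

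The octamer (ATTTGCAT, searched on both strands of the 250 bases before the start) was present for 9 of 19 H2B genes and 7 of 20 H2A genes, for no H1, H3 or H4 gene, and for 1.6% of 22380 protein-coding genes. The CCAAT box (CCAAT, searched in the same way) was present for all 19 H2B genes, 19 of 20 H2A genes, all 6 H1 genes, 10 of 12 H3 genes and 4 of 13 H4 genes, against 35.0% of protein-coding genes. The TATA box (TATAAA) was present for 10 H2B, 9 H2A, 4 H1, 5 H3 and 5 H4 genes, against 12.3% of protein-coding genes. In 14 places a pair of members starts within 1000 bases of each other on opposite strands, so 1 window often covers both promoters. Hist1h2bc is paired in this way with Hist1h2ac (H2A), whose start lies 250 bases away.

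The libraries held 54605101 to 92387737 estimated counts, and the histone genes took between 0.0304% and 0.0973% of them. Tmem120a, the targeted gene, was at 57.9, 68.2, 85.6, 132 and 83.6 TPM in control mice on LFD and at 29.9, 74.0, 53.7, 21.5 and 28.4 TPM in knockout mice on LFD. On HFD it was at 196, 110, 114, 83.3 and 93.6 TPM in control mice and at 69.2, 29.5, 29.9, 39.8 and 89.7 TPM in knockout mice. Its group means were lower in knockout mice on both diets, but 1 knockout mouse in each diet (replicates 7 and 21) reached into the range of the controls. The log2 fold change was −1.61 (SE 0.343, adjusted p = 0.929, edgeR) on LFD and −1.67 (SE 0.291, adjusted p = 0.173, edgeR) on HFD. The share of counts taken by 7SL RNA, the short RNA of the signal recognition particle (counted on 1 annotated gene, which can take up reads of its many copies in the genome), ranged from 3.23% to 17.98%, and it exceeded 10% in 5 libraries (control LFD 4, knockout LFD 7, control HFD 11 and knockout HFD 17 and 21). Replicates 4, 7, 11 and 21 of these also had the highest summed histone TPM of their groups. The sources name an alignment step that kept uniquely mapped reads, and do not say whether the deposited values passed through it. Such a step would remove reads that copies of a gene share.

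Summed over the 68 genes, histone transcripts amounted to 412, 721, 760.2, 1580.5 and 594 TPM in control mice on LFD (replicates 1 to 5). The sums were 723, 1675, 971, 558 and 512 TPM in knockout mice on LFD (replicates 6 to 10). On HFD they were 1589.5, 977, 1189.5, 799.6 and 1029.5 TPM in control mice (replicates 11 to 15). In knockout mice on HFD (replicates 17 to 21) they were 1027, 707, 768, 724 and 1445 TPM. All 4 groups overlapped, and the highest libraries were replicates 7, 11, 4 and 21, which came from 4 different groups. H2A genes supplied 36.1% of the sum over all libraries, H4 genes 26.5%, H2B genes 20.5%, H3 genes 8.70% and H1 genes 8.20%. By cluster, the Hist1 genes on chromosome 13 supplied 70.5% and the 9 Hist2 genes 27.6%.

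**Figure D1:**
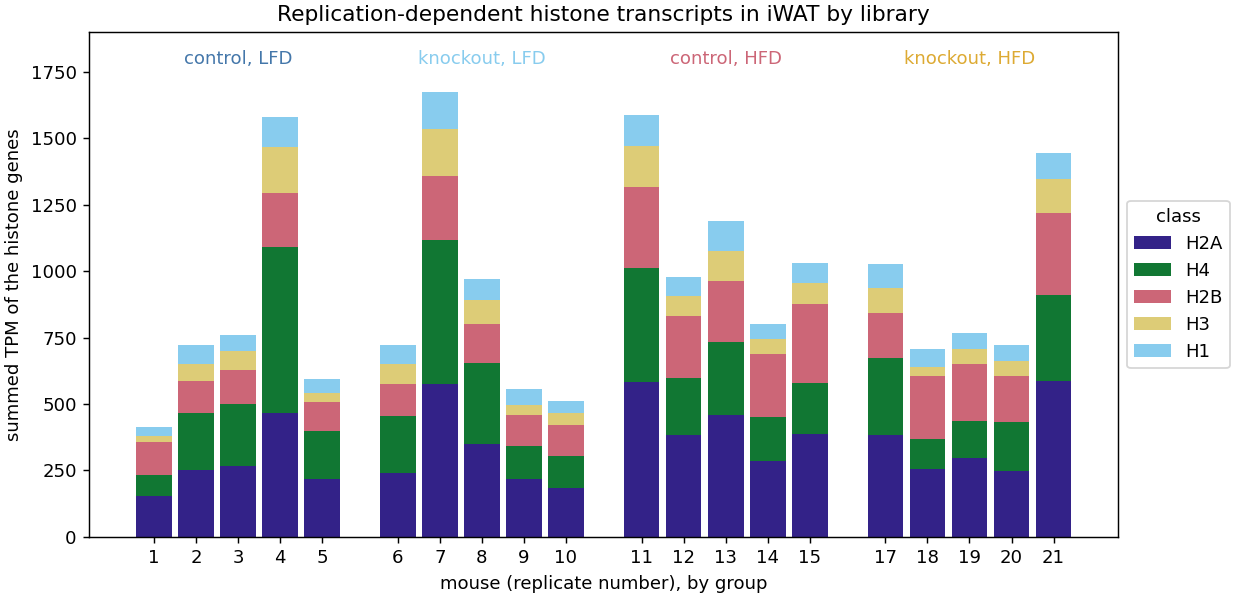
Summed TPM of the 68 histone genes in each mouse, stacked by histone class, with mice numbered as in the labels and set out by group. The sums run from 412 TPM (replicate 1) to 1675 TPM (replicate 7), and every group spans a wide range.

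Few genes carried most of this RNA. Hist2h2aa2 (H2A, with its identical copy Hist2h2aa1) had a mean of 206 TPM over the 20 libraries and Hist1h2bc (H2B) 123 TPM, and these genes supplied 35.1% of the sum. The 10 genes with the highest means supplied 69.5%. After the first pair they were Hist1h4d (92.4 TPM), Hist1h2ao (63.6 TPM, with Hist1h2ap), Hist1h4c (40.4 TPM), Hist1h4h (31.4 TPM), the linker genes Hist1h1e (25.7 TPM) and Hist1h1c (25.3 TPM), Hist1h4n (24.3 TPM) and Hist1h2ak (19.7 TPM). Of the 68 genes, 19 averaged 10 TPM or more, 35 lay between 1 and 10 TPM and 14 below 1 TPM. Among the 14 were genes known as testis types. Hist1h2aa was listed at 0 in every library, Hist1h1t had a mean of 0.0271 TPM and Hist1h2ba 0.767 TPM. Most of the 14 were other genes, and several of those averaged less than Hist1h2ba. Sequences shared between members limit how well single genes can be told apart: in 38 of the 68 genes under 50% of the 31-base words of the leading transcript were found in no other member. That share was 0% for Hist2h2aa2 and Hist1h2ao, 12.5% for Hist1h4n, 50.1% for Hist1h2bc, 97.7% for Hist2h4 and 98.1% for Hist2h2be.

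Most members rose and fell together from mouse to mouse. Among the 54 genes that averaged 1 TPM or more, 92.5% of the 1431 pairs had a positive Pearson correlation of log2(TPM + 1) over the 20 libraries, with a median r of 0.65. Against the sum of all other members, 50 of the 54 had an r above 0.5. The 4 that did not were Hist2h2be (r = −0.68), Hist1h4m (−0.03), Hist1h2bc (0.24) and Hist2h3c1 (0.27). The median r was 0.78 for the 35 genes that end within 100 bases of the hairpin, 0.81 for the 13 that run further, and 0.69 for the 6 with none. The group without a hairpin held Hist1h2bc and Hist2h2be, but also genes such as Hist1h4a that moved with the others, so the annotated end alone did not separate them. Members of 1 library share its depth, its RNA quality and, for similar genes, reads, and these correlations are given as a description.

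**Figure D2:**
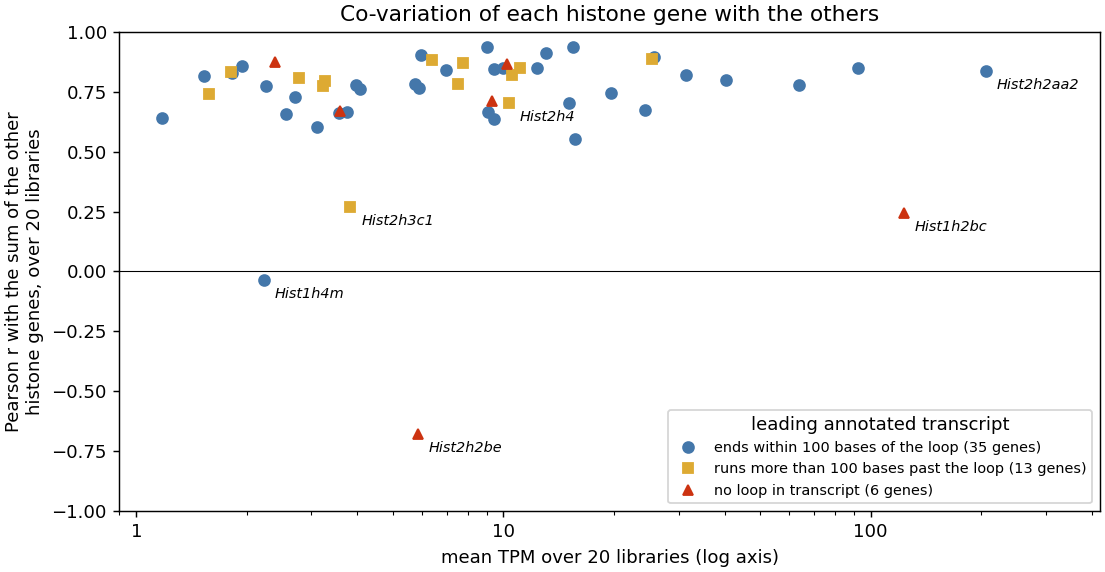
Pearson r of each histone gene with the summed TPM of the other histone genes over 20 libraries (vertical axis) against its mean TPM (log axis), for the 54 genes of at least 1 TPM, with the colour and shape giving the annotated end of the leading transcript. Of the 54 genes, 50 lie above 0.5, while Hist2h2be lies at −0.68 and Hist1h2bc at 0.24.

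Among the 54 genes averaging 1 TPM or more, the coefficient of variation over the 20 libraries was smallest for Hist3h2a (25.2%, mean 7.53 TPM) and Hist2h2be (33.6%, mean 5.84 TPM), both with long annotated transcripts. Among the same 54 genes it was largest for Hist1h4m (268%) and Hist2h3c2 (121%), which were at 0 in 17 and 3 libraries. Hist3h2a, an H2A gene, was at 6.07, 6.24, 5.97, 8.79 and 6.56 TPM in control mice on LFD and 10.9, 6.82, 9.41, 6.47 and 6.91 TPM on HFD. Its values in knockout mice were 5.38, 12.0, 7.45, 6.88 and 5.70 TPM on LFD and 8.21, 7.54, 4.96, 8.33 and 9.99 TPM on HFD. It overlaps Trim17 on the same strand, so reads of the shared part could be counted for either gene. All groups overlapped, and the gene was highest in replicates 7 and 11. Hist2h3c2, annotated as a pseudogene of the H3 class, was at 0.266, 1.42, 2.02, 3.17 and 0.159 TPM in control mice on LFD and 4.46, 1.86, 3.41, 0.234 and 1.33 TPM on HFD. Knockout mice had it at 0.447, 9.48, 1.12, 0 and 0 TPM on LFD and 1.30, 1.43, 2.04, 0 and 2.14 TPM on HFD. The groups overlapped, with replicate 7 far above the rest. Hist1h4n, an H4 gene, was at 5.91, 17.8, 26.9, 68.1 and 15.6 TPM in control mice on LFD and 47.9, 23.5, 15.0, 15.1 and 22.2 TPM on HFD. In knockout mice Hist1h4n was at 22.7, 61.9, 27.7, 10.3 and 9.24 TPM on LFD and 37.4, 5.38, 12.2, 0.211 and 41.6 TPM on HFD, and here too all groups overlapped.

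The diet comparison asks how 15 weeks of HFD changed the level of each gene. Hist1h2bc, which encodes an H2B protein, rose to about 2-fold its LFD level in both genotypes. Its level in control mice was 98.3, 78.2, 70.9, 92.5 and 76.1 TPM on LFD and 189, 181, 141, 188 and 226 TPM on HFD. In knockout mice the levels were 68.7, 85.8, 83.1, 47.4 and 82.8 TPM on LFD and 87.98, 176, 167, 117 and 206 TPM on HFD. Every mouse on HFD was above every mouse on LFD of its genotype, by a wide margin in controls and, in knockouts, narrowly for replicate 17. The log2 fold change was 1.01 (SE 0.156) in control mice, with an adjusted p of 0.00597 from edgeR's quasi-likelihood test, and 1.02 (SE 0.205) in knockout mice, with an adjusted p of 0.0158. The exact two-sided permutation test on log2(TPM + 1) gave p = 0.00794 in each genotype, the smallest value that 5 against 5 mice allow. This p follows from the lack of overlap and adds nothing to it. The change differed between genotypes by −0.01 (log2, SE 0.264, adjusted p = 0.9999, edgeR). In bulk tissue a higher level in each cell and a larger share of cells that express the gene cannot be told apart.

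**Figure D3:**
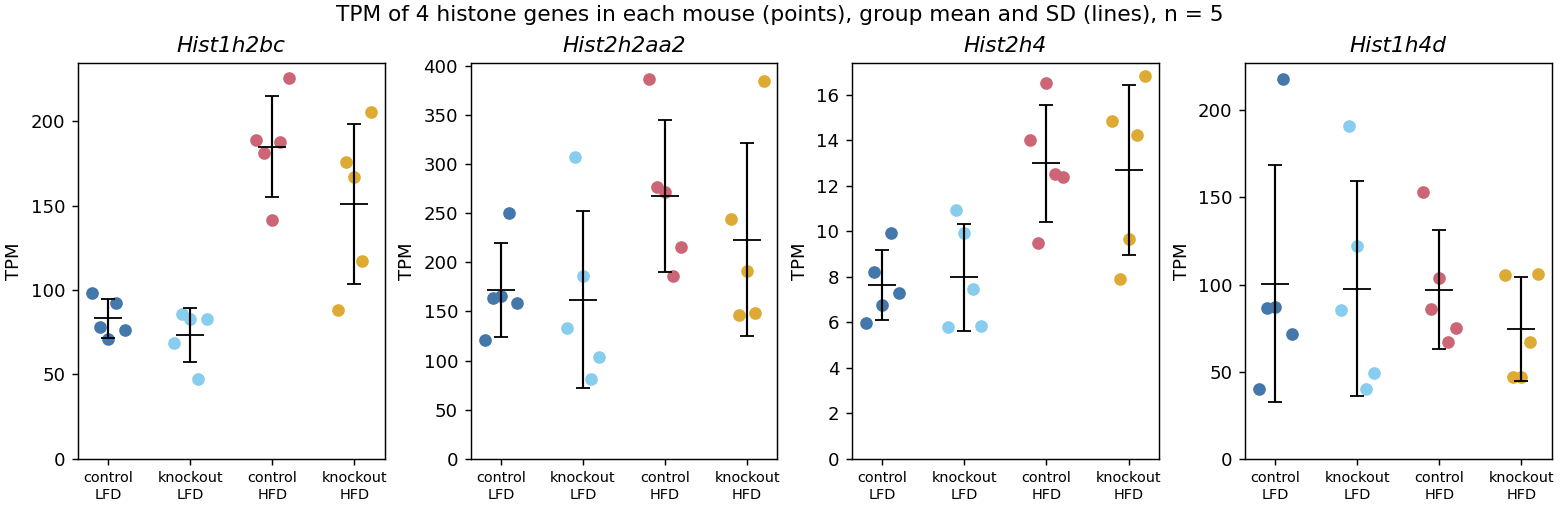
TPM of Hist1h2bc, Hist2h2aa2, Hist2h4 and Hist1h4d in each of the 20 mice (points, coloured by group) with the group mean and SD (n = 5). The Hist1h2bc points of the HFD mice lie at 87.98 to 226 TPM, above all LFD mice of the same genotype, while the groups of Hist2h2aa2, Hist2h4 and Hist1h4d overlap.

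With this gene, 1 of the 62 members tested was called between the diets in control mice (adjusted p under 0.1), against 9.32% of all 15311 genes tested. In knockout mice 1 of 60 was called, against 9.4% of 15705 genes. Hist1h2bc was also the single member whose TPM values did not overlap between the diets, in control mice (9.78% of all genes) and in knockout mice (7.95% of all genes). At an unadjusted p under 0.05, 4 members passed in control mice (20.7% of all genes) and 3 in knockout mice (19.8%). These counts were not above the background shares.

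Hist2h2aa2 and Hist2h4 had positive fold changes that did not pass the threshold. Hist2h2aa2, the most abundant member, was at 121, 163, 166, 251 and 158 TPM in control mice on LFD and 387, 277, 272, 186 and 216 TPM on HFD, a log2 fold change of 0.54 (SE 0.237, adjusted p = 0.223, edgeR). In knockout mice it was at 133, 307, 186, 81.0 and 103 TPM on LFD and 244, 147, 192, 148 and 385 TPM on HFD, with a log2 fold change of 0.55 (SE 0.335, adjusted p = 0.407, edgeR). In each genotype the upper values of the LFD group, replicates 4 and 7, reached well into the HFD group. Hist2h4, an H4 gene named here after its values were seen, was at 5.95, 8.22, 6.76, 9.93 and 7.30 TPM in control mice on LFD and 14.02, 9.46, 16.5, 12.5 and 12.4 TPM on HFD. There replicate 4 on LFD and replicate 12 on HFD were the only mice to overlap. In knockout mice, whose diets overlapped more, it was at 5.79, 10.9, 9.90, 7.47 and 5.83 TPM on LFD and 14.8, 7.91, 9.65, 14.3 and 16.8 TPM on HFD. The log2 fold changes of Hist2h4 were 0.52 (SE 0.262, adjusted p = 0.293, edgeR) in controls and 0.60 (SE 0.281, adjusted p = 0.259, edgeR) in knockouts.

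Among H4 genes that end at the hairpin, none of the abundant ones was called. Hist1h4d was at 39.8, 86.5, 87.0, 218 and 71.9 TPM in control mice on LFD and 153, 85.7, 104, 67.1 and 75.2 TPM on HFD. In knockout mice its level was 85.2, 191, 122, 40.1 and 49.1 TPM on LFD and 106, 46.7, 46.8, 67.1 and 106 TPM on HFD. The diets overlapped fully in both genotypes, with log2 fold changes of −0.24 (SE 0.436) and −0.36 (SE 0.414). Hist1h4c was at 9.70, 40.8, 45.1, 117 and 35.6 TPM in control mice on LFD and 57.8, 28.4, 44.4, 21.7 and 29.5 TPM on HFD. Its values in knockout mice were 34.4, 99.1, 48.6, 10.8 and 25.0 TPM on LFD and 42.0, 17.98, 22.2, 31.3 and 47.7 TPM on HFD. In both genotypes the LFD mice spanned a wider range than the HFD mice and enclosed them. Hist1h4h was at 10.8, 25.9, 30.4, 105 and 27.5 TPM in control mice on LFD and 63.4, 30.2, 30.0, 19.3 and 17.3 TPM on HFD. In knockout mice the levels of Hist1h4h were 24.1, 70.8, 33.6, 8.68 and 14.3 TPM on LFD and 34.1, 8.76, 19.1, 14.5 and 40.0 TPM on HFD. As for Hist1h4d and Hist1h4c, the highest values of each group belonged to replicates 4, 7, 11, 17 and 21, the libraries with the most 7SL RNA.

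Among the H2A genes, Hist1h2ao was at 12.0, 42.9, 44.8, 91.4 and 22.2 TPM in control mice on LFD and 89.6, 52.2, 90.6, 53.0 and 89.4 TPM on HFD, a log2 fold change of 0.70 (SE 0.439, adjusted p = 0.404, edgeR). Knockout mice had Hist1h2ao at 46.2, 122, 76.3, 80.5 and 37.9 TPM on LFD and 62.0, 56.4, 62.8, 43.5 and 96.7 TPM on HFD. The control groups overlapped through replicate 4, and the knockout groups overlapped fully. Hist1h2ak was at 2.36, 10.9, 14.4, 27.2 and 8.91 TPM in control mice on LFD and 24.9, 14.7, 27.5, 10.8 and 28.7 TPM on HFD. Its levels in knockout mice, 14.4, 36.4, 24.8, 26.4 and 14.1 TPM on LFD and 25.9, 15.6, 16.5, 18.5 and 30.6 TPM on HFD, overlapped fully. Its log2 fold change with diet was 0.68 (SE 0.506) in controls and −0.01 (SE 0.276) in knockouts, and neither passed.

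The linker genes Hist1h1e and Hist1h1c, which encode H1 proteins, varied by 38.3% and 40.3% (coefficient of variation) over the libraries. Hist1h1e was at 12.1, 27.0, 18.8, 42.3 and 22.2 TPM in control mice on LFD and 36.8, 25.6, 38.7, 20.8 and 26.0 TPM on HFD. The levels of Hist1h1e in knockout mice were 24.0, 47.6, 30.6, 12.5 and 17.6 TPM on LFD and 28.1, 14.7, 20.3, 17.2 and 31.7 TPM on HFD. The HFD mice of both genotypes lay inside the range of the LFD mice. Hist1h1c was at 12.7, 25.2, 19.9, 38.7 and 19.05 TPM in control mice on LFD and 46.03, 23.7, 38.3, 18.9 and 20.2 TPM on HFD. For knockout mice the values of Hist1h1c were 21.7, 42.0, 20.5, 13.7 and 11.9 TPM on LFD and 36.3, 21.2, 16.7, 26.1 and 33.5 TPM on HFD. The diets overlapped for both genes, with log2 fold changes in controls of 0.08 (SE 0.314) for Hist1h1e and 0.16 (SE 0.317) for Hist1h1c.

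Over all members tested, the median log2 fold change with HFD was 0.27 in control mice, beside −0.04 over all genes. There 46 of 62 members were positive, against 45.8% of all genes. The median in knockout mice was −0.20, beside 0.00 over all genes, and 20 of 60 members were positive, against 50.3% of all genes. Members share libraries and some share reads, so such counts are not of independent genes. By class in control mice the medians were 0.47 for 17 H2B genes, 0.36 for 15 H2A genes, 0.23 for 12 H3 genes, 0.13 for 5 H1 genes and −0.17 for 13 H4 genes. In knockout mice they were −0.0049, −0.12 (14 H2A genes), −0.27, −0.14 and −0.27 in the same order, with 16 H2B genes. These medians moved with single libraries. Without control LFD replicate 4, 60 of 61 members were positive in control mice and the median was 0.85, and it was 0.05 without control LFD replicate 1 and 0.04 without control HFD replicate 11. In knockout mice the median turned to 0.18, with 40 members positive, without knockout LFD replicate 7. The summed TPM was higher on HFD by 0.57 (mean log2 difference) in controls and by 0.16 in knockouts, and without Hist1h2bc by 0.48 and 0.03.

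**Figure D4:**
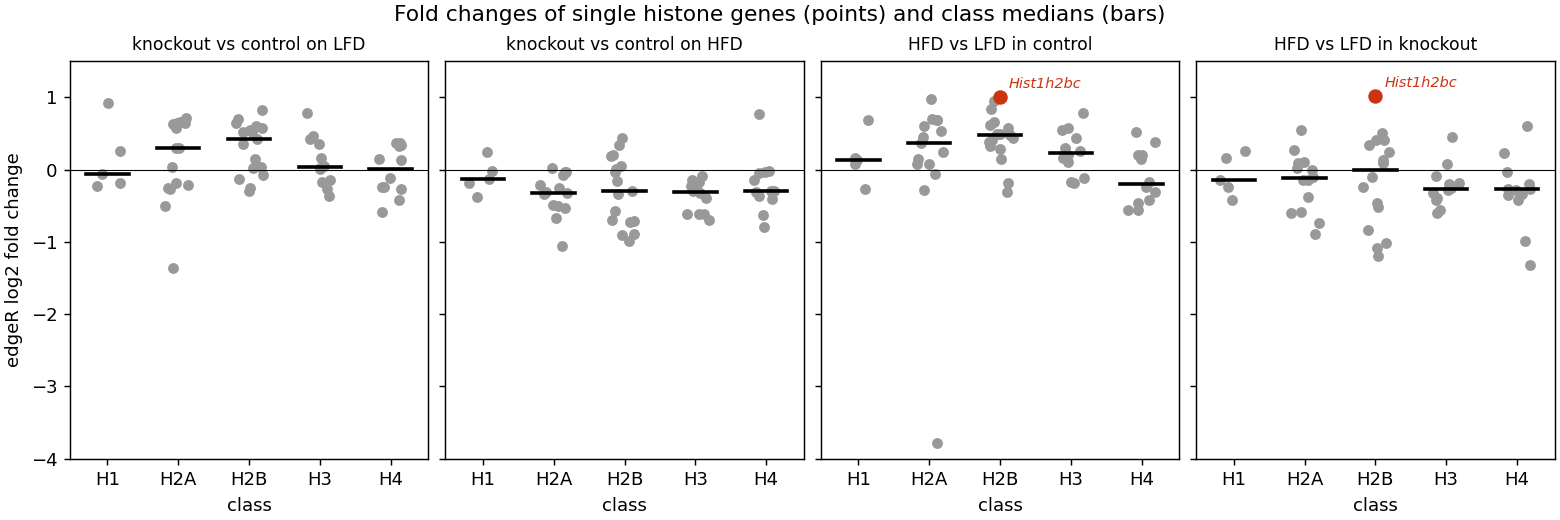
edgeR log2 fold change of each histone gene tested (points) by class, in the 4 pairwise comparisons, with the median of each class as a bar and genes past an adjusted p of 0.1 in red. Hist1h2bc is the single red point, at 1.01 and 1.02 with HFD, while the class medians lie within 0.5 of 0. Hist1h4m, at 0 in whole groups, is left out, and the low H2A point in controls is Hist1h2aj, an annotated pseudogene with a mean of 0.606 TPM that was at 0 in 12 libraries.

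Hist1h2ac, the partner of Hist1h2bc across the shared upstream region, was far lower in level. It had a mean of 0.971 TPM, with a log2 fold change with HFD of 0.36 in control and 0.09 in knockout mice, against 1.01 and 1.02 for Hist1h2bc, and the difference between the genes was not tested. For Hist2h2ac and Hist2h2be, whose starts lie 240 bases apart, the Pearson r over 20 libraries was −0.62. Over the pairs in which both genes averaged 0.5 TPM or more, r ranged from this value to 0.81 (Hist1h2ae and Hist1h2bg). The pair of Hist1h2bc had an r of 0.43. Several of these genes share sequence with other members, so the values of a pair are partly those of its paralogs.

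For genotype, the question is whether loss of Tmem120a in adipocytes changed histone gene levels. No member was called on HFD among the 61 tested, against 0.00657% of all 15228 genes. None reached an unadjusted edgeR p under 0.05 (4.66% of all genes). No member was called on LFD among the 61 tested, against 0.00636% of 15717 genes. Again none reached an unadjusted edgeR p under 0.05 (5.11% of all genes). DESeq2 and limma also called no member on either diet. In no member did the TPM values of the genotypes separate on HFD (0.69% of all genes) or on LFD (1.4% of all genes). With 1 gene called in each comparison across the genome, these counts say little about the members. Hist1h2bc had a log2 fold change of −0.29 (SE 0.196) on HFD and −0.30 (SE 0.161) on LFD.

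The median differences had opposite signs on the 2 diets, and single libraries decided their size. On HFD the median log2 fold change in knockout mice was −0.29, beside 0.01 over all genes. There 51 of 61 members were negative, while 51.3% of all genes were positive. All 12 H3 genes and 13 of 14 H2A genes were negative, but members are not independent of each other. On LFD the median was 0.14, beside −0.02 over all genes, with 38 of 61 members positive, against 47.2% of all genes. The HFD median was −0.06 without control HFD replicate 11 (27 members positive), −0.51 without knockout HFD replicate 21 (7 positive) and −0.60 without the libraries of over 10% 7SL RNA, where 6 members had an unadjusted p under 0.05 and none was called, and the LFD median was −0.29 without knockout LFD replicate 7 and 0.80 without control LFD replicate 4. The summed TPM differed by −0.28 (mean log2 difference) on HFD and by 0.13 on LFD, both less than the spread between mice of 1 group. The difference of the genotype effects between the diets had a median of −0.40 over 62 members, and 0.01 without knockout LFD replicate 7, and it was called for none (0% of 15574 genes) and reached an unadjusted p under 0.05 for 1, Hist1h1a (3.6% of all genes). Hist1h1a, a linker gene, had a log2 difference of −1.12 (SE 0.511) and an adjusted p of 0.9999 from edgeR. The exact permutation test between genotypes, unadjusted, gave p = 0.0397 for Hist1h1a on LFD and 0.563 on HFD. DESeq2 and limma called no member for this difference either.

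The share of counts taken by 7SL RNA moved with the histone genes. Over the 20 libraries the summed TPM of the 67 members other than Hist1h2bc had a Pearson r of 0.89 and a Spearman rho of 0.87 with the 7SL share (log2 scale), and r was 0.84 without the 2 libraries farthest from the median. Within each group of 5 mice r lay between 0.92 and 0.96. Of the 54 members of at least 1 TPM, 48 had an r above 0.5 with it. Hist1h2bc did not follow it, with r = −0.03 over all libraries, 0.59 in knockout mice on LFD and values below 0 in the other groups. Hist2h2be ran against it, with r = −0.73 and with values between −0.91 and −0.49 in the 4 groups. Hist2h2be was at 7.76, 4.999, 4.28, 5.36 and 5.16 TPM in control mice on LFD and 3.35, 4.35, 4.35, 6.14 and 7.29 TPM on HFD, with no call in any comparison. Knockout mice had it at 5.09, 3.99, 4.24, 7.28 and 9.09 TPM on LFD and 5.48, 9.80, 6.47, 9.11 and 3.28 TPM on HFD. Its lowest value fell in the library with the most 7SL RNA in both HFD groups and in knockout mice on LFD. In control mice on LFD it did not. There replicate 4, with the most 7SL RNA, was at 5.36 TPM and replicate 3 was lowest at 4.28 TPM. 7SK RNA, a short nuclear RNA summed over its annotated copies, had an r of 0.66 with the summed histone TPM. The part of library composition in the histone levels was not tested.

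**Figure D5:**
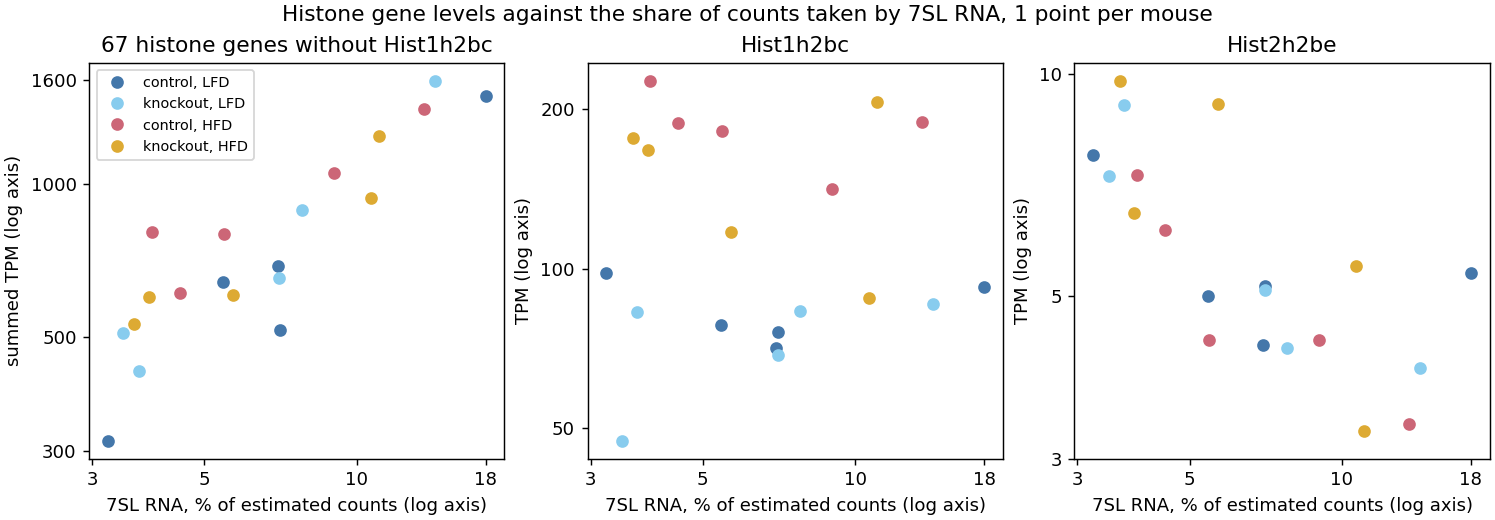
Summed TPM of the 67 histone genes without Hist1h2bc, and TPM of Hist1h2bc and Hist2h2be, against the percentage of estimated counts taken by 7SL RNA, 1 point per mouse on log axes. The sum climbs with the 7SL share in all 4 groups (r = 0.89), the Hist1h2bc points of HFD mice lie above those of LFD mice of the same genotype with r = −0.03, and Hist2h2be declines (r = −0.73).

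With the 7SL share held as a covariate, an alternative added after the data were seen, the rise of Hist1h2bc was called again and more members passed. In control mice 7 members were called with diet, among them Hist2h2aa2 (log2 fold change 0.60, adjusted p = 0.00281, edgeR), Hist2h4 (0.62, adjusted p = 0.0213, edgeR) and Hist1h2ao (1.01, adjusted p = 0.0702, edgeR). In knockout mice 6 were called, among them Hist2h2aa2 (0.59, adjusted p = 0.0163, edgeR) and Hist2h4 (0.57, adjusted p = 0.0426, edgeR). Hist1h4d was called lower there (−0.28, adjusted p = 0.0705, edgeR). Both counts also held Hist1h4m (14.1 in control and 11.6 in knockout mice). That gene was at 0 in every LFD mouse and in most HFD mice, so these fold changes have no reliable size. The same fit called 22.4% of all genes in control mice and 21.9% in knockout mice. For genotype this fit called no member on either diet. Without the 5 libraries of over 10% 7SL RNA, 3 of 60 members were called with diet in control mice, Hist1h2bc, Hist2h2aa2 and Hist2h4, against 7.57% of all genes. In knockout mice 1 of 59 was called, Hist1h2bc, against 3.66% of all genes.

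The genes whose levels followed the summed histone TPM most closely held none of the listed replication or mitosis genes. With only 10 genes taken from 13922, this absence says little about those lists. Among 13922 other genes of at least 1 TPM, the 10 with the highest Pearson r over 20 libraries were Tecr (0.95), Ppp1ca (0.93), Atox1 (0.93), Psmb5 (0.93), Churc1 (0.93), A530016L24Rik (0.93), D17Wsu104e (0.93), Twf2 (0.92), Arf5 (0.92) and Cox8a (0.92). Tecr encodes an enzyme of very long chain fatty acid synthesis, Ppp1ca a protein phosphatase subunit, Atox1 a copper chaperone, Psmb5 a proteasome subunit and Cox8a a subunit of cytochrome c oxidase. They were picked from all genes for this likeness, so their r values are a description.

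Genes of the cell cycle were set beside the histone genes because histone synthesis is tied to S phase. The summed TPM of 33 measured DNA replication genes had an r of −0.14 with the summed histone TPM (−0.48 around group means), and that of 23 mitosis genes an r of 0.26. For single genes r was 0.13 for the proliferation marker Mki67, 0.20 for the topoisomerase gene Top2a, −0.37 for the replication clamp gene Pcna (−0.67 around group means), 0.12 for the ribonucleotide reductase gene Rrm2 and 0.43 for the helicase gene Mcm5. The mitosis genes were lowest in control mice on LFD, where their sum was between 42.1 and 63.9 TPM, against 68.6 to 178 TPM in the other 3 groups. With HFD in control mice, where 9.32% of all genes were called, 6 of 23 mitosis genes were called higher and none lower: Ccnb1 (log2 fold change 1.10), Tpx2 (1.02), Ccnb2 (0.97), Prc1 (0.87), Kif20a (0.86) and Cenpe (0.78). Of 33 replication genes in that comparison Cdc45 (0.74) and Uhrf1 (0.75) were called higher and Tyms (−0.47) lower, a share close to that of all genes. In knockout mice no gene of either list was called with diet, and none was called for genotype on either diet.

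Mki67 had a mean of 5.16 ± 1.07 TPM (SD, n = 5) in control mice on LFD, 8.68 ± 2.04 TPM on HFD, and 12.6 ± 5.76 and 9.19 ± 2.39 TPM in knockout mice on LFD and HFD. Top2a was at 6.70 ± 1.67 and 11.2 ± 3.21 TPM in control mice and 15.4 ± 5.79 and 12.5 ± 3.34 TPM in knockout mice on LFD and HFD. Both were thus lowest in the control LFD group, without a call in any comparison. The knockout to control difference of Mki67 on LFD was 1.17 (log2, SE 0.271, adjusted p = 0.929, edgeR). Pcna (68.8 to 134 TPM), Rrm2 (2.64 to 4.28 TPM) and Mcm5 (2.96 to 5.24 TPM), given as the lowest and highest group mean, also had no call.

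Genes for making and removing histone mRNA were called at a share no higher than that of all genes in the diet comparisons. Of 21 tested genes for 3' end processing and turnover, none was called for genotype or with diet in control mice, and Xrn1, a 5' to 3' exonuclease, was called lower with HFD in knockout mice (log2 fold change −0.59, adjusted p = 0.0792, edgeR). Slbp, the stem-loop binding protein gene, was at 38.6 ± 7.12 and 50.7 ± 4.97 TPM (SD, n = 5) in control mice and 46.4 ± 5.41 and 52.2 ± 9.84 TPM in knockout mice on LFD and HFD, with no call. Its r with the summed histone TPM was 0.12. Among 16 histone chaperone genes Daxx, a chaperone of the replacement histone H3.3, was called higher with HFD in control (0.63, adjusted p = 0.0307, edgeR) and knockout mice (0.61, adjusted p = 0.0453, edgeR), and Nap1l1 in control mice (0.67, adjusted p = 0.0985, edgeR). That was 2 of 16 in control mice, against 9.32% of all genes, and 1 of 16 in knockout mice, against 9.4%. These counts say little about the chaperones as a group. Of 12 tested histone variant genes outside the clusters, such as H2afz and H3f3b, none was called in any comparison, and their sum had an r of 0.01 with that of the cluster genes (−0.31 around group means). The sum of the chaperone genes had an r of −0.40 with that of the cluster genes (−0.76 around group means).

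Markers of other cells in the tissue were compared with the histone sum over the 20 libraries. The 7 erythroid genes, mainly globins, had the highest r, 0.75, with sums between 441 and 4705 TPM, and none of the 7 was at 0 throughout. Their ranges were 919 to 3839 and 441 to 4705 TPM in control and knockout mice on LFD, and 1524 to 4526 and 718 to 3581 TPM on HFD. The 6 measured macrophage genes had an r of 0.62 and the 10 white adipocyte genes, among them Adipoq and Lep, an r of 0.47, with adipocyte sums of 20059 to 41694 TPM. Markers of lymphocytes (r = 0.25), germinal centre B cells (0.15), skeletal muscle (−0.19), mammary epithelium (0.01), hair follicle and epidermis (0.13), fat progenitors (−0.01) and endothelium (0.04) followed the sum less closely. For Hist1h2bc the highest r values were 0.74 with the 4 endothelial genes, 0.72 with the 5 germinal centre genes and 0.68 with the adipocyte genes. These r values pool the diets. Like Hist1h2bc, the sums of these lists had higher means on HFD than on LFD in both genotypes. No r around group means is given for Hist1h2bc, so a shared shift with diet and co-variation between mice are not separated. The 13 lymphocyte genes, B cell markers among them, had an r of −0.20 with Hist1h2bc. In control LFD replicate 1 the lymphocyte genes summed to 13.4 TPM, beside 29.2 TPM for the germinal centre genes. The second list is named for the cells it was meant to mark, and its sum cannot be read as a measure of B cells. The endothelial sum was 84.1 to 157 and 112 to 156 TPM in control and knockout mice on LFD, and 147 to 248 and 146 to 250.5 TPM on HFD. Of the 4 genes Cdh5 was called higher in control mice, where 9.32% of all genes were called. The germinal centre sum was 22.5 to 33.3 and 25.2 to 37.5 TPM on LFD and 35.0 to 45.0 and 31.2 to 46.5 TPM on HFD, with none of its genes called. Muscle markers summed to 2718 TPM in control LFD replicate 5 and to 6.13 to 176 TPM in the other control mice on LFD. In control mice on HFD they summed to 6.23 to 41.4 TPM, with 7 of 8 called lower, against 9.32% of all genes called. In knockout mice they summed to 12.2 to 856 TPM on LFD and 34.9 to 1203 TPM on HFD, with none called (9.4% of all genes). The part of cell composition in the levels of the histone genes was not tested.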

How the data were processed

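The authors made the deposited estimated counts and TPM with Salmon (0.13.1 in the submitters' notes) from Ensembl transcripts of NCBIM37 (mm9), using stranded, rRNA-depleted total RNA. The TPM values were deposited scaled within each library, and the deposited counts were not normalized between libraries. They also aligned reads with STAR (2.5.3) and kept uniquely mapped pairs, and whether the deposited values rest on those reads is not given in the sources used here. Of 96533 transcripts, 94334 matched the GENCODE vM1 annotation and were summed per gene, and unmatched ones held at most 0.581% of a library's counts. Gene sums were rounded and tested with edgeR 4.0.16 (quasi-likelihood, TMM scaling, R 4.3.3), pair by pair of groups, for genes averaging 0.5 TPM or more. An adjusted p under 0.1 (Benjamini-Hochberg over all genes tested) counted as a call. The SE beside an edgeR log2 fold change was derived as its absolute value divided by the square root of the test's F statistic. Over 20 libraries a term for genotype by diet was tested. Single genes were also tested by an exact permutation test over 252 assignments of log2(TPM + 1). Nothing in the labels pairs the mice, each of which is 1 library.

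Members, lists and tests were chosen with earlier results of these data known. Members named with every value were the 10 highest, those called or not overlapping in a comparison, and the 2 most and 2 least variable averaging 1 TPM or more. Hist2h4, Hist2h3c1, Hist1h1a, Hist1h2ac, Hist1h2aj, Hist1h4a and Hist4h4 were named after their values were seen. The fits were also run on simulated data. DESeq2 1.42.0 and limma 3.58.1 were alternatives. Hairpins were read from mm9. Alternatives were other scaling, tools, pseudocounts, filters and length offsets, and leaving out libraries. The TPM of 7SL RNA depended on its estimated length, and its share of counts was used in its place.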

Additional observations from a re-analysis of the deposited data

Results flagged for a closer look

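In 7 of the 60 groups of 5 mice looked at (14 named genes and the summed TPM in 4 groups each), 1 mouse lay far from the other 4 by Dixon's criterion. Independent, normally distributed values meet it by chance in about 1 of 20 groups. The TPM values were not transformed and the genes share libraries, so the 7 groups cannot be set against that rate. In control mice on LFD, replicate 4 stood above the others for Hist1h4d (218 TPM, others 39.8 to 87.0), Hist1h4h (105 TPM, others 10.8 to 30.4) and Hist3h2a (8.79 TPM, others 5.97 to 6.56). It was the library with the most 7SL RNA of all 20. In control mice on HFD, replicate 11 did so for Hist1h4h (63.4 TPM, others 17.3 to 30.2) and Hist1h4n (47.9 TPM, others 15.0 to 23.5), and replicate 13 for Hist1h4m (15.9 TPM, others 0). In knockout mice on LFD, replicate 7 stood apart for Hist2h3c2 (9.48 TPM, others 0 to 1.12). Replicates 11 and 7 were the libraries of their groups with the most 7SL RNA.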

How the results depend on the processing

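No paired analysis was possible because each mouse carries a replicate number of its own and no number is shared between groups. Hist1h2bc was called with diet in all 22 fits of each genotype, with log2 fold changes of 0.92 to 1.15 in control mice and 0.91 to 1.14 in knockout mice. The number of members called with HFD in control mice was 1 and became 3 with limma on log2(TPM + 1) or log2(TPM + 0.1), 2 with length offsets in edgeR or DESeq2, 7 with 7SL RNA as a covariate and 3 without the libraries of over 10% 7SL RNA. Leaving out 1 library gave 1 to 4, with 2 without control LFD replicate 1 and 4 without control LFD replicate 4. In knockout mice it was 1 and became 2 with DESeq2, with or without length offsets, where Hist1h4m was added, and 6 with 7SL RNA as a covariate; leaving out 1 library gave 1 each time. For genotype and its difference between diets no setting called a member. Hist2h4 was called with HFD in control mice in 7 of 22 fits and Hist2h2aa2 in 3. The limma fits shifted the median of all genes in that comparison from −0.04 to 0.13 and 0.16. Leaving out 1 library moved the summed TPM difference between 0.36 and 0.84 for diet in control mice, −0.01 and 0.42 in knockout mice, −0.45 and −0.14 for genotype on HFD, and −0.13 and 0.41 on LFD. The covariate, the removal of 7SL-rich libraries, the removal of Hist1h2bc and DESeq2 with offsets were added after the data were seen. The cause of these shifts was not tested. Over all genes, 1427 were called with HFD in control mice, against 2205 with DESeq2, 2148 with limma on log2(TPM + 0.1), 3427 with the covariate and 780 to 1845 with 1 library left out. In knockout mice 1476 were called, against 2247 with DESeq2, 3443 with the covariate, 570 without the 7SL-rich libraries and 753 to 1355 with 1 library left out. For genotype 1 gene was called on each diet, against 100 (HFD) and 17 (LFD) with DESeq2, and on HFD 26 without a filter, 27 without the 7SL-rich libraries and 1 to 58 with 1 library left out. For the difference between diets it was 0, against 17 with DESeq2.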

Other observations

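Hist1h4m and Hist1h4n, a pair of H4 genes of the Hist1 cluster, share most of their sequence with other members, and 8.30% and 12.5% of their 31-base words occur in no other member. Hist1h4m was at 0 in 17 of 20 libraries, and at 15.9 TPM in control HFD replicate 13, 6.73 TPM in knockout HFD replicate 18 and 21.8 TPM in knockout HFD replicate 20. In these 3 libraries Hist1h4n was at 15.0, 5.38 and 0.211 TPM, against a mean of 24.3 TPM over all. The sum of both genes ranged from 5.91 to 68.1 TPM over the 20 libraries, with mean log2 differences with HFD of 0.35 in control and 0.08 in knockout mice. Hist1h4m alone was the gene that DESeq2 added among the members called with diet in knockout mice.

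Hist4h4, the single gene of its cluster, had an annotated transcript of 312 bases and ranged from 0.136 to 28.2 TPM, a coefficient of variation of 78.4%. The Hist3 genes summed to between 5.52 and 15.9 TPM.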
